A study of Mus musculus with 20 samples.

Results

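The hindlimbs of Lmx1b -/- mouse embryos were compared with wild-type hindlimbs of the same age. The comparison used the 10 hindlimb arrays of a series of 20, chosen by the limb and genotype in the sample descriptions: 5 arrays of Lmx1b -/- hindlimbs and 5 of wild-type hindlimbs. The other 10 arrays were Lmx1b -/- and wild-type forelimbs, 5 each, and served only as a contrast. All embryos were of the 129Sv strain at embryonic day 13.5 (E13.5), and each array carried the RNA of 1 limb. Both hindlimb groups held 3 right and 2 left limbs. The labels call the mutants loss-of-function and name no Cre driver or second allele. The series asks which limb genes depend on Lmx1b.

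Lmx1b encodes a LIM-homeodomain transcription factor that is switched on in the dorsal mesenchyme of the limb bud by Wnt7a from the dorsal ectoderm. It gives the dorsal side its identity, which includes the pattern of tendons, muscles, skeleton and skin. Mice without it have paws with ventral structures on both sides, and loss of 1 copy in humans causes nail-patella syndrome, which affects nails, kneecaps, kidneys and eyes. At E13.5 the limb holds condensed cartilage, early tendons and muscles, ingrowing nerves and vessels, and skin without hair.

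Levels are given as log2 of the deposited intensity, and a change is the mean of the knockout arrays minus the mean of the wild-type arrays on that scale. The 10 hindlimb arrays had median intensities of 28.9 to 31.1. Y-linked transcripts marked 3 male and 2 female limbs in each group. No label ties a limb to an embryo, so some limbs may share one, and the p-values cover the spread among these 10 limbs, part of which may be technical. Markers of limb type went with the labels. Tbx4 lay at 7.28 to 7.82 in the hindlimbs, against 5.58 to 6.40 in the forelimbs, and Pitx1 at 8.22 to 8.57 against 5.18 to 5.75. The forelimb factor Tbx5 lay at 4.38 to 5.09 in the hindlimbs, against 8.26 to 8.93 in the forelimbs.

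Knockout replicate 6 stood apart from the other 9 hindlimb arrays. Its mean over 32 epidermis and apical ridge genes was 6.98, against 6.01 to 6.63 in the others, and its mean over 27 hypoxia and glycolysis genes was 7.93, against 7.40 to 7.59. Its cartilage mean of 5.86 was the lowest, as were its Tbx4 and Pitx1 levels of 7.28 and 8.22. Among defining epidermal markers, Krt5 stood at 10.47 there, against 9.22 to 9.73 in the other knockouts and 9.53 to 10.01 in wild type. Trp63 stood at 7.30, against 6.36 to 6.63 in the other knockouts and 6.58 to 7.04 in wild type. For some of the genes and lists below, results are given with and without this array.

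Lmx1b itself was measured by probe set 10481835. Its level was 5.88, 5.81, 6.09, 5.84 and 5.96 in knockout hindlimbs, against 6.44, 6.48, 6.31, 6.52 and 6.49 in wild-type hindlimbs. Every knockout array lay below every wild-type array. The change was -0.53 (SE 0.068; limma, adjusted p = 0.00353), with means of 5.92 ± 0.114 in knockouts and 6.45 ± 0.083 in wild type (SD, n = 5 each). A probe set of this array type combines several probes along a transcript into 1 value. Which of them lie in the deleted stretch is not given in the sources used here. With the 6 male arrays only, the change was -0.64 and the adjusted p = 0.0658.

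Loss of Lmx1b was accompanied by lower levels of a small set of genes and hardly any higher ones. Of 19936 genes, 42 (0.211%) passed the threshold of an adjusted p of 0.05 in limma, 40 of them lower (0.201%) and 2 higher (0.01%) in knockout hindlimbs. At an unadjusted p under 0.05 there were 1287 genes (6.46%), 780 lower (3.91%) and 507 higher (2.54%). The median change over all genes was 0.00, with 5th and 95th percentiles of -0.17 and 0.15. Of the 42 genes, 22 changed at least 1.5-fold and 8 at least 2-fold, and all 8 of these were lower. In each of the 40 lowered genes all 5 knockout arrays lay below all 5 wild-type arrays, which held for 0.903% of all genes. In both raised genes all 5 lay above, which held for 0.587%. These are whole-limb samples, so fewer cells of a type and less RNA per cell cannot be told apart.

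**Figure D1:**
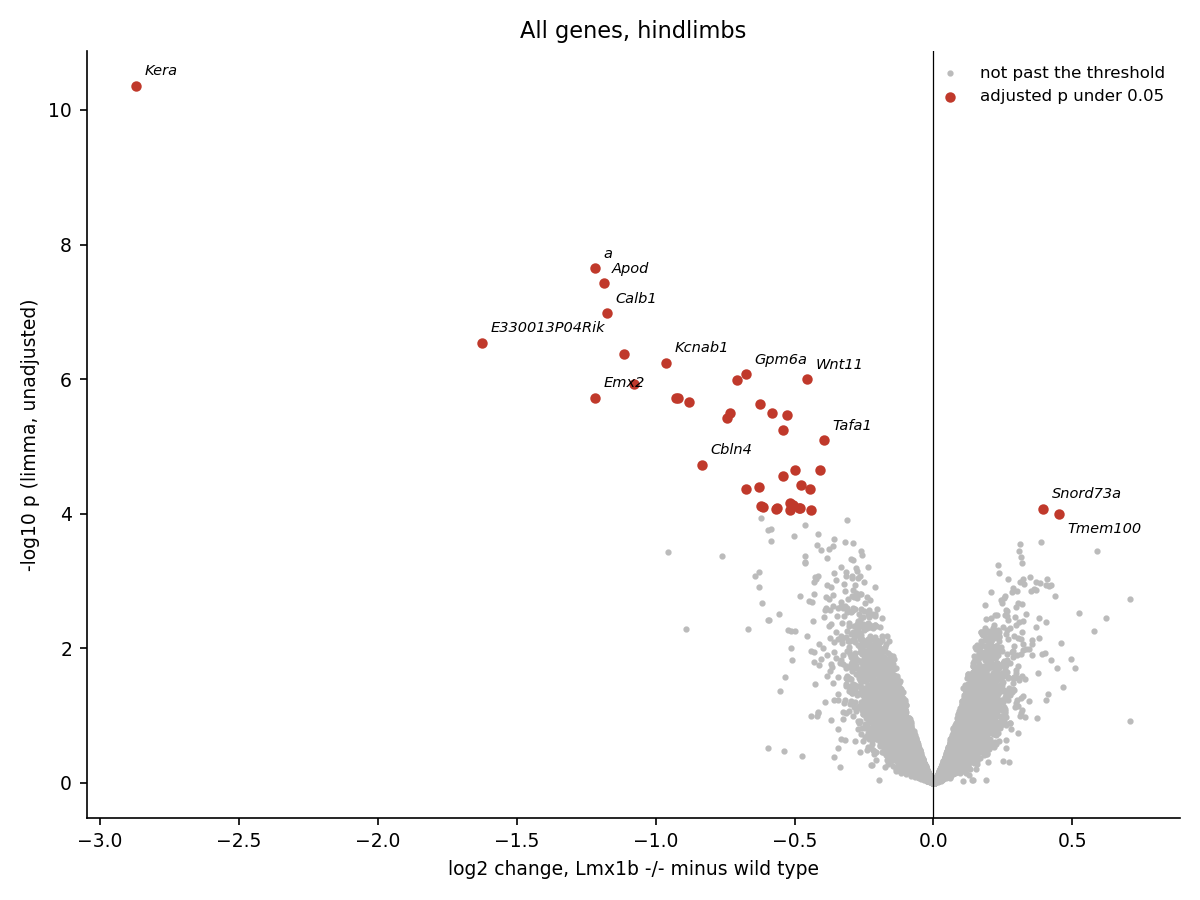
Each point is 1 of the 19936 genes, with the log2 change (Lmx1b -/- minus wild type, hindlimbs) on the x axis and the unadjusted limma p as -log10 on the y axis. Red points are the 42 genes past the adjusted threshold, 40 on the lower side and 2 on the higher side, with Kera far from the rest at -2.87.

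Matrix genes held the strongest change. Kera encodes keratocan, a keratan sulphate proteoglycan of the small leucine-rich family that spaces collagen fibrils and is best known from the cornea. Its level was 5.60, 5.96, 5.57, 5.24 and 5.53 in knockout hindlimbs, against 8.47, 8.83, 8.30, 8.09 and 8.56 in wild type. The gap between the groups, 5.96 against 8.09, was wider than the range within either. Kera was 7.31-fold lower, a change of -2.87 (SE 0.142; 95% interval -3.18 to -2.56; adjusted p = 8.67e-07).

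Lum encodes lumican, a related proteoglycan that also binds collagen fibrils, and it lies next to Kera in the genome. It stood at 9.41, 9.50, 9.01, 9.15 and 8.94 in knockout hindlimbs, against 10.17, 10.43, 10.35, 9.95 and 10.49 in wild type, with no overlap. It was 2.11-fold lower (change -1.08, SE 0.126; adjusted p = 0.00216). The genes on either side of this pair belong to the same family. Dcn, which encodes decorin, stood at 9.41, 9.30, 8.92, 8.78 and 8.68 in knockouts, against 9.67, 9.95, 9.95, 9.31 and 10.02 in wild type, and 1 knockout array reached into the wild-type range. Its change of -0.76 (SE 0.161) did not pass (adjusted p = 0.128). Epyc, which encodes the cartilage proteoglycan epiphycan, had a change of -0.10 (adjusted p = 0.977), at 3.38 to 4.74 in knockouts and 3.47 to 4.59 in wild type. Of 17 measured small leucine-rich proteoglycan genes, Kera and Lum passed and none was called higher, and the list's median change was -0.07 against 0.00 for all genes.

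Other matrix genes were lower by smaller amounts. Efemp1, which encodes the extracellular protein fibulin-3, stood at 6.38 to 6.98 in knockouts and 7.31 to 7.57 in wild type (change -0.61). Its lowest value was that of knockout replicate 6, without which the change was -0.50. Hs3st1, a sulphotransferase gene that modifies heparan sulphate, stood at 4.60 to 5.0 in knockouts and 5.16 to 5.29 in wild type (change -0.44). Both lost their call in 9 of the 10 fits that left out 1 array. None of 32 fibrillar and network collagen genes and none of 47 other matrix genes passed, with medians of -0.05 in both lists. In the collagen list Col14a1, a fibril-associated collagen gene, had the largest difference, -0.62 (adjusted p = 0.293). Hpse2, a heparanase relative that binds heparan sulphate, stood at 6.24, 6.67, 6.87, 6.80 and 7.03 in knockouts, against 6.03, 6.12, 6.31, 6.07 and 6.13 in wild type. With all arrays its change of 0.59 did not pass (adjusted p = 0.116), and without knockout replicate 6 it was 0.71 (adjusted p = 0.0041).

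Transcription factor genes formed a second group. Emx2 encodes a homeodomain factor needed for the shoulder blade, the urogenital tract and the cerebral cortex. It stood at 5.54, 4.97, 5.15, 4.57 and 4.77 in knockout hindlimbs, against 6.28, 6.41, 6.10, 6.05 and 6.26 in wild type. The knockouts varied more than the wild types but stayed below them, with knockout replicate 6 the highest. Emx2 was 2.32-fold lower (change -1.22, SE 0.148; adjusted p = 0.00273), and the change was -1.35 without that array. A transcript with a provisional name, E330013P04Rik, is separated from Emx2 by 1 measured gene, Rab11fip2. It stood at 4.84, 4.59, 4.52, 4.47 and 4.74 in knockouts and 6.44, 6.65, 6.01, 5.64 and 6.56 in wild type, a change of -1.63 (SE 0.167; adjusted p = 0.00115). Rab11fip2, an endosome recycling gene, had a change of -0.36 with all 5 knockouts below, and did not pass (adjusted p = 0.106).

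Foxf2, a forkhead factor gene of mesenchyme, stood at 4.68, 4.93, 4.66, 4.66 and 4.72 in knockout hindlimbs and 5.82, 6.01, 5.51, 5.32 and 5.63 in wild type (change -0.93, SE 0.113). Shox2, a homeobox gene needed for the upper segment of the limb, stood at 6.27, 6.55, 6.33, 6.25 and 6.64 in knockouts and 6.71, 7.18, 7.12, 7.31 and 7.08 in wild type. Its change was -0.67 (SE 0.111; adjusted p = 0.0287), and the highest knockout came close to the lowest wild type. The call was lost in 7 of the 10 fits that left out 1 array. Hoxc5, a gene of the HoxC cluster, changed by -0.48, at 3.94 to 4.27 in knockouts and 4.39 to 4.70 in wild type. Its neighbours Hoxc6 and Hoxc4 had changes of -0.14 and -0.17 and did not pass. Hoxc8, beyond Hoxc6, had a change of -0.37 and did not pass either. Alx1, an aristaless-type homeobox gene, changed by -0.44, at 4.31 to 4.46 in knockouts and 4.65 to 5.02 in wild type. Hoxc5 lost its call in 7 and Alx1 in 8 of those 10 fits. Among 48 other limb patterning transcription factors, Emx2, Shox2 and Alx1 passed, and the list's median change was 0.02. Posterior Hox genes (groups 9 to 13) had a median of -0.02, with no call among 16.

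The promoters of 4 lowered genes are shown for their sequence, with the letters TAATTA in capitals. This palindrome, the same on both strands, is the core that many homeodomain proteins bind, and Kera is printed as the gene with the strongest change. The windows come from RefSeq on GRCm38.p6 and run from 250 bases before to 50 after the start of the transcript, plus strand, and Gpm6a is shown in the window of a second start site. They are Kera at chr10:97606955-97607254, Emx2 at chr19:59458440-59458739, Ms4a4d at chr19:11536544-11536843 and Gpm6a at chr8:54954478-54954777.
Kera: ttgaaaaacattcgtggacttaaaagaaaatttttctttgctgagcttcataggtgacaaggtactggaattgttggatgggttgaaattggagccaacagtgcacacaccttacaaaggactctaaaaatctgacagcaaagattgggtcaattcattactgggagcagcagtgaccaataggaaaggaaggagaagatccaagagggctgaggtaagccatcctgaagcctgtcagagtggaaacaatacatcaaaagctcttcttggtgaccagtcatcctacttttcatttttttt
Emx2: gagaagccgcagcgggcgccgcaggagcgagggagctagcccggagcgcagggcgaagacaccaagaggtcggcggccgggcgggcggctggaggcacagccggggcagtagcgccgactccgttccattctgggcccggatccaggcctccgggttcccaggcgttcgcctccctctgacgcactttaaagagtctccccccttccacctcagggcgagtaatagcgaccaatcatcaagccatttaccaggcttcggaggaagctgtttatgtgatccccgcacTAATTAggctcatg
Ms4a4d: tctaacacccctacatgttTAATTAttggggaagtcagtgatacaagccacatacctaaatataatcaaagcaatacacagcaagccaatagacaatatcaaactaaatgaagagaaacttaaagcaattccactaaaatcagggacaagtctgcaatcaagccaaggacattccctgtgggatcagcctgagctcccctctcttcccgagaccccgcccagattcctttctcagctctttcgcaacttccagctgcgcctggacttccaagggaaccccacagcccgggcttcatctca
Gpm6a: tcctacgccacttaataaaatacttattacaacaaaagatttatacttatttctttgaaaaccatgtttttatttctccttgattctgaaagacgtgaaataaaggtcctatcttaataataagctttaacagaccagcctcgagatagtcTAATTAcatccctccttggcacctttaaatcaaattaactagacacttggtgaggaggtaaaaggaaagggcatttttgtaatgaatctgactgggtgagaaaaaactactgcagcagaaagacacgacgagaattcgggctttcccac
The letters stand at bases 287 to 292 of the Emx2 window, 20 to 25 of the Ms4a4d window and 152 to 157 of the Gpm6a window, and nowhere in the Kera window. Of the 28 lowered genes whose windows were counted, these 3 held TAATTA (10.7%), against 1655 of 27025 genes in the whole table (6.12%). By window the shares were 3 of 36 (8.33%) for the lowered genes counted and 5.29% for all windows. The other 12 lowered genes, Cbln2 among them, were not counted. The shares may thus rest on unlike sets, and they cannot show an excess among the lowered genes. A match is a string of letters in this window and no evidence of binding.

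The lowered genes included secreted signals. The gene a encodes agouti signalling protein, which blocks the melanocortin receptor of pigment cells and shifts them to yellow pigment. It stood at 5.73, 5.59, 5.67, 5.59 and 6.02 in knockout hindlimbs, against 6.85, 7.03, 6.67, 7.11 and 7.02 in wild type. The groups were clearly separate, with a 2.32-fold lower mean in knockouts (change -1.22, SE 0.100; adjusted p = 0.000223). Wnt11, a ligand of non-canonical Wnt signalling, stood at 5.93, 5.98, 5.87, 5.93 and 5.84 in knockouts and 6.34, 6.41, 6.30, 6.37 and 6.40 in wild type. This was a small change, -0.45 (SE 0.052; adjusted p = 0.00206), with very little spread within groups. Of 49 measured Wnt pathway genes it was the 1 that passed, and the list's median change was -0.03.

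Cbln2 and Cbln4 encode secreted C1q-like proteins that organise synapses. Cbln2 stood at 5.30, 5.98, 5.68, 5.74 and 5.80 in knockouts and 6.56, 6.78, 6.59, 6.42 and 6.74 in wild type (change -0.92, SE 0.112). Cbln4 stood at 5.07, 4.97, 4.85, 4.91 and 4.92 in knockouts and 5.27, 6.0, 5.88, 6.07 and 5.66 in wild type (change -0.83, SE 0.126), and wild-type replicate 6 came close to the knockouts. Tmeff2, a transmembrane protein gene with follistatin-like and EGF-like domains, changed by -0.63, at 4.99 to 5.40 in knockouts and 5.60 to 6.13 in wild type. Tafa1, a gene for a small secreted protein of the nervous system, changed by -0.39, at 5.15 to 5.33 against 5.60 to 5.68. Trhde, an ectoenzyme gene that degrades thyrotropin-releasing hormone, changed by -0.48.

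The BMP antagonist gene Grem1 stood at 4.70, 5.19, 5.51, 5.24 and 5.32 in knockouts, against 5.75, 5.81, 5.72, 5.79 and 5.82 in wild type. All 5 knockouts lay below, but knockout replicate 6 lay far under the other 4. The change was -0.59 (adjusted p = 0.0994) with all arrays and -0.46 (adjusted p = 0.0181) without that array, and the adjusted p = 0.0144 when all 20 arrays shared 1 estimate of the spread. Bmp2, a BMP ligand gene, stood at 7.31, 7.56, 7.63, 7.63 and 7.56 in knockouts and 7.26, 7.15, 7.18, 7.39 and 7.21 in wild type. Its change was 0.30 (adjusted p = 0.24), and 0.36 (adjusted p = 0.0469) without knockout replicate 6. With all arrays none of 41 BMP, GDF and TGF-beta genes, 35 FGF and hedgehog genes or 21 retinoic acid genes passed, with medians of -0.03, -0.03 and -0.02.

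Receptors for neurotransmitters and guidance cues were among the lowered genes. Sstr1, a somatostatin receptor gene, stood at 4.16, 4.33, 4.30, 4.24 and 4.45 in knockout hindlimbs and 5.04, 5.53, 4.87, 5.11 and 5.34 in wild type (change -0.88, SE 0.109). Oprk1, the kappa opioid receptor gene, stood at 3.32, 2.98, 3.38, 3.37 and 3.54 in knockouts and 3.85, 4.11, 4.06, 4.17 and 4.12 in wild type (change -0.74, SE 0.097). In both genes the knockout and wild-type arrays were separate. Gabrb2, a GABA receptor subunit gene, changed by -0.54, and the serotonin receptor gene Htr1b by -0.52 (-0.44 without knockout replicate 6). Gabrb2 had 2 further probe sets, with changes of -0.70 (adjusted p = 0.0257 over all probe sets) and -0.31 (adjusted p = 0.5). Nrp2 encodes neuropilin-2, a co-receptor for semaphorins and VEGF. It stood at 6.81, 7.12, 6.88, 6.71 and 6.89 in knockouts and 7.27, 7.28, 7.28, 7.58 and 7.52 in wild type (change -0.50, SE 0.088; adjusted p = 0.0426), a call lost in 9 of the 10 fits that left out 1 array. Of 53 axon guidance and neurotrophic genes Nrp2 alone passed, with a list median of -0.09.

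Further lowered genes are best known from nerve cells. Calb1 encodes calbindin, a calcium buffer. It stood at 4.21, 4.01, 4.32, 4.12 and 3.81 in knockout hindlimbs, against 5.37, 5.37, 5.11, 4.99 and 5.49 in wild type (change -1.17, SE 0.111; adjusted p = 0.000527). Kcnab1, a potassium channel beta subunit gene, stood at 4.49, 4.72, 4.47, 4.19 and 4.51 in knockouts and 5.23, 5.53, 5.29, 5.43 and 5.71 in wild type (change -0.96, SE 0.105). Kcnip4, which encodes a protein that binds potassium channels, changed by -0.73, and Gpm6a, a neuronal membrane glycoprotein gene, by -0.68. The adhesion genes Negr1 and Cdh8 changed by -0.58 and -0.54. Gap43, the growth cone gene, stood at 7.97, 8.05, 8.01, 7.82 and 7.94 in knockouts and 8.32, 8.49, 8.30, 8.32 and 8.41 in wild type (change -0.41, SE 0.063). Insyn2b and Minar1 changed by -0.52 and -0.48. Of 33 synaptic and channel genes Cbln2, Cbln4 and Calb1 passed (median -0.06), and of 21 neuron and axon transcripts Gap43 did (median -0.04). None of 17 Schwann cell and peripheral nerve genes passed (median -0.03).

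Apod and Slc40a1 fell as well. Apod encodes apolipoprotein D, a lipocalin that carries small lipids. It stood at 5.22, 5.23, 4.96, 5.04 and 4.93 in knockout hindlimbs, against 6.18, 6.43, 6.0, 6.17 and 6.54 in wild type (change -1.19, SE 0.102; adjusted p = 0.000248). Slc40a1 encodes ferroportin, the cellular iron exporter. It stood at 6.91, 6.90, 6.49, 6.58 and 6.48 in knockouts and 7.85, 7.84, 7.68, 7.49 and 8.07 in wild type (change -1.11, SE 0.118; adjusted p = 0.00139). Each was the 1 gene called in its list, of 22 apolipoprotein and lipid transport genes and 20 iron handling genes, both with a median of -0.03. Steap4, an iron reductase gene of the same iron list, had a change of -0.60 with all 5 knockouts below, and did not pass (adjusted p = 0.0729).

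The other lowered genes have varied roles. Ppargc1a, a coactivator gene of mitochondrial biogenesis, changed by -0.63, at 3.62 to 3.97 in knockouts and 4.28 to 4.54 in wild type. Ms4a4d, of the membrane-spanning MS4A family, changed by -0.71, and Tmtc2, an endoplasmic reticulum protein gene, by -0.57. Gmnc, a regulator gene of multiciliated cells, changed by -0.62, at 3.19 to 3.43 in knockouts and 3.58 to 4.26 in wild type. Tor3a, a torsin gene, changed by -0.50 and Aard by -0.56. In all, 16 of the 42 genes (38.1%) had a mean level under 5, as did 43.2% of all genes.

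The 2 raised genes changed little, and each lost its call in 9 of the 10 fits that left out 1 array. Tmem100 encodes a membrane protein of vessel walls that acts downstream of the receptor ALK1 in endothelium. It stood at 6.62, 6.50, 6.53, 6.34 and 6.22 in knockout hindlimbs, against 5.84, 5.99, 6.12, 6.02 and 5.98 in wild type (change 0.45, SE 0.082; adjusted p = 0.0479). Snord73a is a small nucleolar RNA whose gene lies within Rps3a1, a ribosomal protein gene. It stood at 4.43, 4.44, 4.23, 4.49 and 4.20 in knockouts and 3.87, 4.02, 3.92, 4.01 and 4.0 in wild type (change 0.39, SE 0.070; adjusted p = 0.0426). Rps3a1 itself had a change of -0.15 (adjusted p = 0.964), and a second RNA of the same host, Snord73b, one of 0.44 (adjusted p = 0.627). The largest difference upward in the table was 0.71 for the detoxifying enzyme gene Glo1, which did not pass (adjusted p = 0.267).

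**Figure D2:**
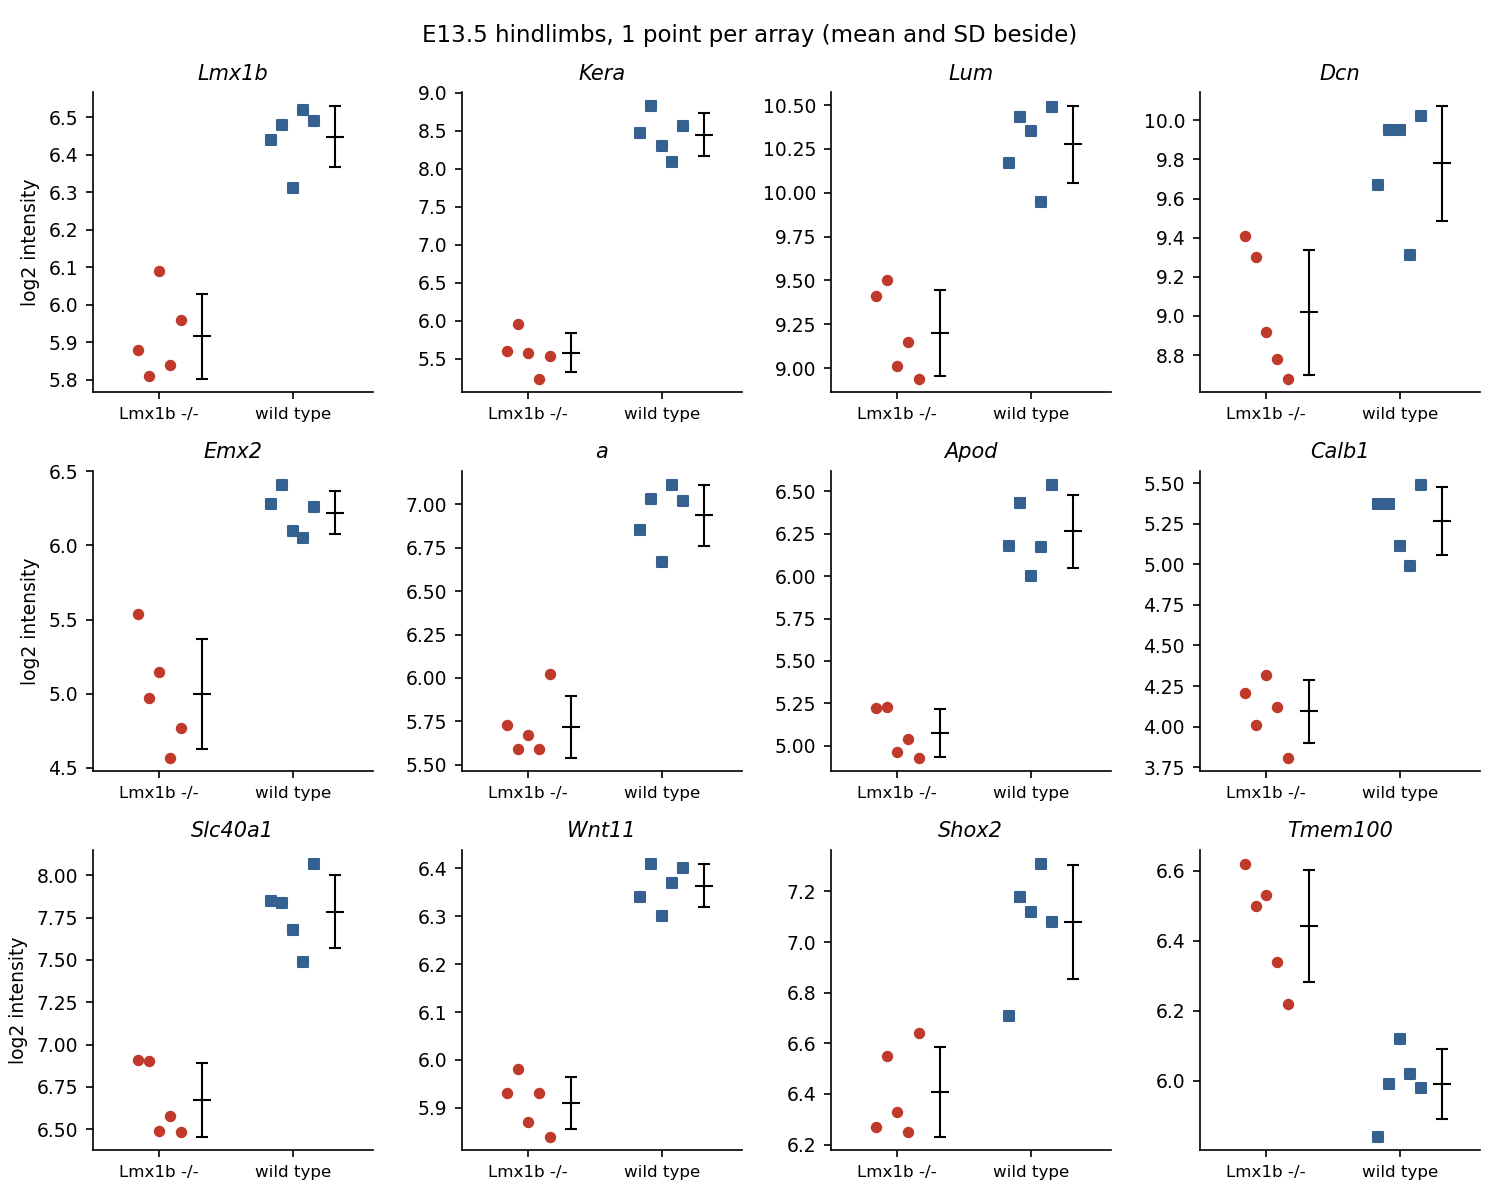
Log2 intensity of 12 genes in the hindlimb arrays, Lmx1b -/- as red circles and wild type as blue squares, with the mean and SD (n = 5 each) beside each group. In 11 panels the groups do not overlap, and in Dcn the highest knockout at 9.41 reaches above the lowest wild type at 9.31.

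The dorsoventral signals upstream of Lmx1b were set beside it. Wnt7a, the dorsal ectoderm signal, stood at 6.50, 5.97, 5.92, 5.64 and 5.77 in knockout hindlimbs and 5.86, 5.94, 6.19, 6.03 and 5.96 in wild type. The change was -0.04 (95% interval -0.32 to 0.25; adjusted p = 0.989), and the highest value was again in knockout replicate 6, without which the change was -0.17 (adjusted p = 0.651). En1, the ventral ectoderm factor that represses Wnt7a, had a change of 0.04 (95% interval -0.11 to 0.19; adjusted p = 0.966). Lmx1b and Emx2 were the members of the dorsoventral patterning list that passed, among 19 measured (median -0.02). Of 9 limb-type identity genes Hoxc5 passed (median -0.07). Tbx4 and Pitx1 had changes of -0.05 and -0.06.

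Few genes of skeleton and tendon passed. Of 24 tendon and ligament genes Kera passed and the median was -0.12, and 19 had a change below 0. None passed among 16 osteoblast and perichondrium genes (median -0.12), 12 growth plate genes (-0.09), 25 cartilage genes (-0.02), 20 joint interzone genes (-0.03), 44 skeletal muscle genes (-0.07) or 20 muscle connective tissue genes (0.03). Thbs4, a thrombospondin gene of tendon matrix, stood at 5.19, 5.93, 5.40, 5.81 and 5.75 in knockout hindlimbs and 6.03, 6.10, 6.04, 5.45 and 5.96 in wild type. The groups overlapped and the change of -0.30 did not pass (adjusted p = 0.799), and it was -0.19 (adjusted p = 0.77) without knockout replicate 6. Ibsp, the bone sialoprotein gene, had a change of -0.21 (adjusted p = 0.814), at 3.40 to 3.78 in knockouts and 3.56 to 4.11 in wild type.

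Most pigment cell genes had values below 0. Of 18 genes of pigment cells and their agouti pathway, 17 had a change below 0 and 9 had an unadjusted p under 0.05, against 3.91% of all genes lower at that p. Only a passed the adjusted test, and the list's median was -0.21, or -0.22 without knockout replicate 6. The mean of the list ran from 4.76 to 4.84 in knockout arrays and from 5.01 to 5.12 in wild-type arrays, with no overlap. Dct, an enzyme gene that marks melanoblasts, stood at 4.15, 4.44, 4.41, 4.21 and 4.37 in knockouts, against 4.76, 5.13, 5.97, 4.82 and 5.68 in wild type. Its change of -0.96 did not pass (adjusted p = 0.116), with a wild-type SD of 0.533 and a knockout SD of 0.128, and it passed with all 20 arrays in 1 fit (adjusted p = 0.0186). The melanocyte factor gene Mitf had a change of -0.38 (adjusted p = 0.215) and the pigment fibre gene Pmel one of -0.32 (adjusted p = 0.358). Sox10, made in both melanoblasts and Schwann cells, had a change of -0.06.

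Markers of other cell types gave no further calls except those named. None passed among 31 endothelial genes (median -0.05), 28 macrophage and leukocyte genes (-0.08), 12 erythroid genes (-0.01), 32 epidermis and apical ridge genes (-0.04), 21 hair follicle, nail and pad genes (-0.04) or 20 pericyte and smooth muscle genes (0.00). The same held for 33 cell cycle genes (0.05), 11 early-stage genes (0.06), 27 hypoxia and glycolysis genes (0.13), 27 immediate early and stress genes (-0.03) and 4 sex-linked genes. Of 17 podocyte and eye genes tied to Lmx1b, Kera passed. The mean of the muscle list ran from 6.29 to 6.63 in knockouts and from 6.27 to 6.64 in wild type. The neuron list ran from 5.20 to 5.27 in knockouts and from 5.28 to 5.32 in wild type, beside the lower Gap43, and the part of nerve content in that result was not tested. Without knockout replicate 6 the medians of the hypoxia, cartilage and epidermis lists were 0.05, 0.14 and -0.20.

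**Figure D3:**
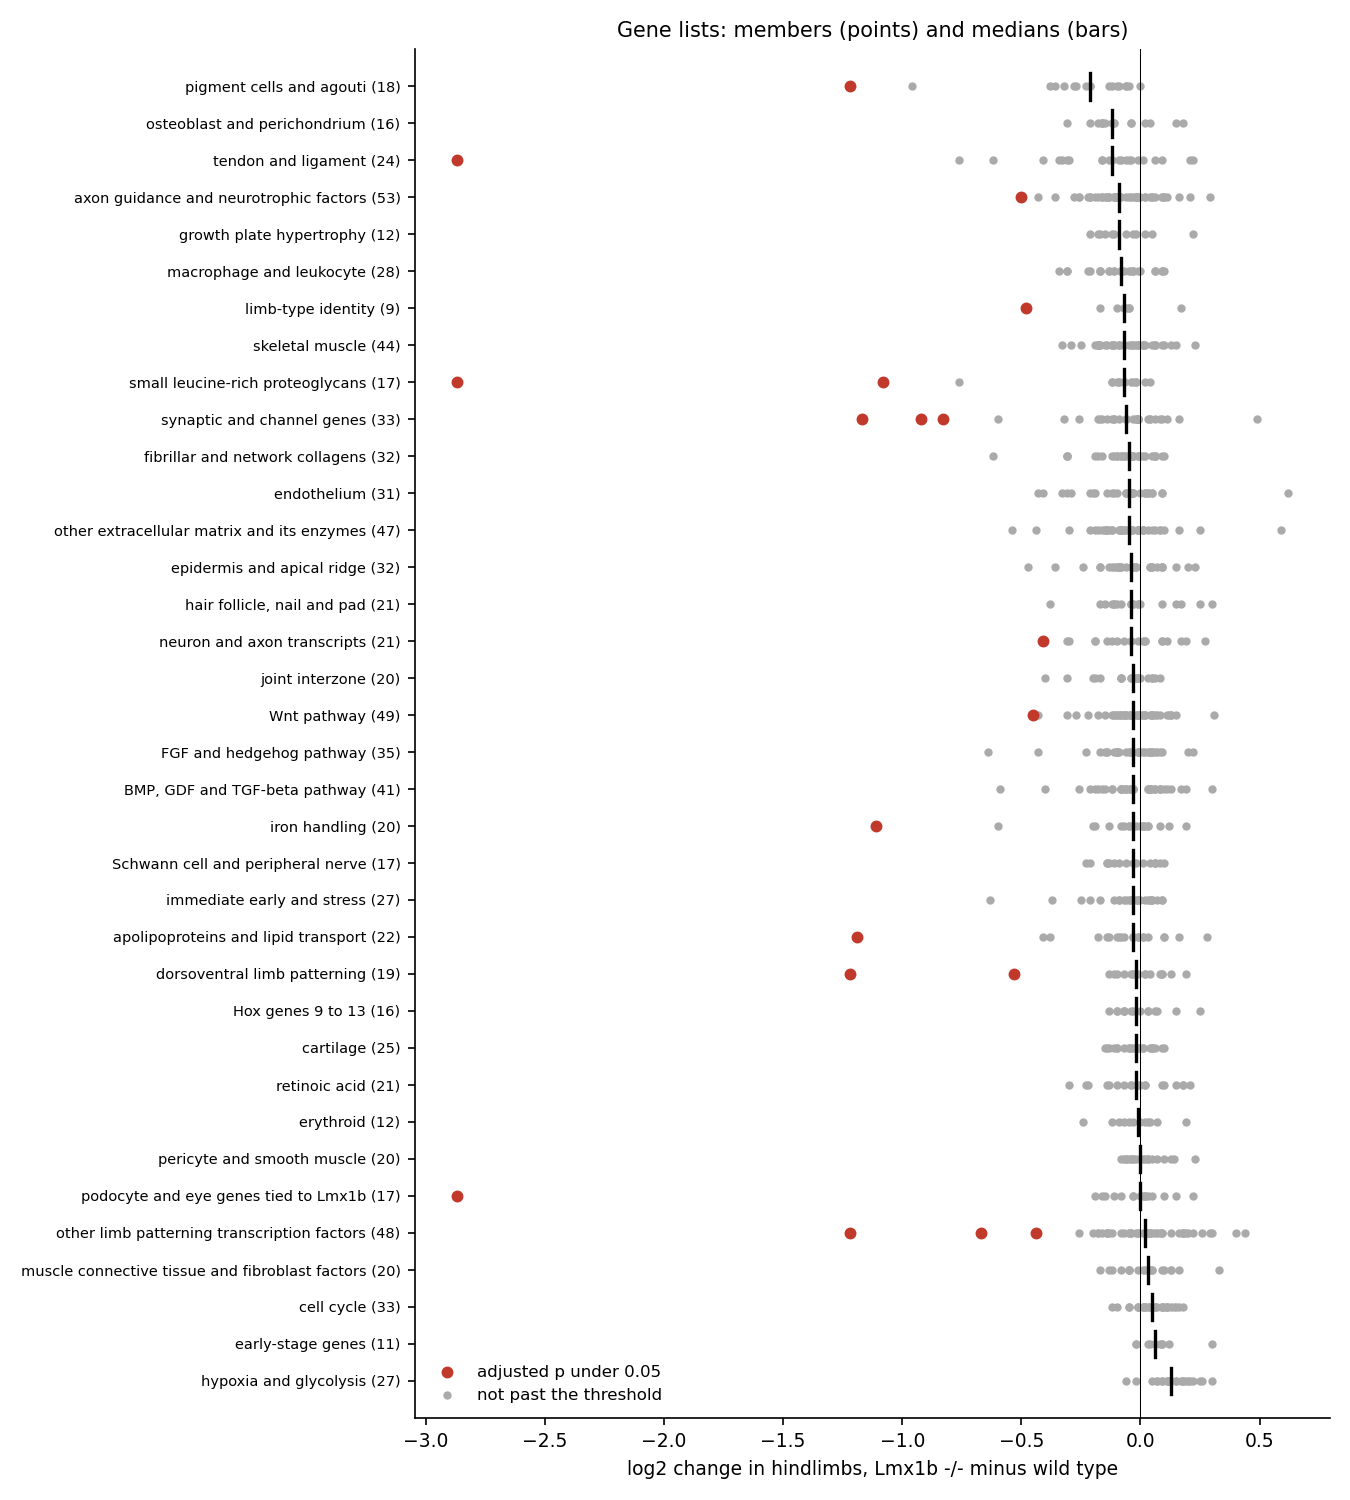
Log2 change in hindlimbs (Lmx1b -/- minus wild type, x axis) of each measured member of 36 gene lists, with the number of members in brackets and a black bar at the list's median. Red points passed the adjusted threshold, and list medians ran from -0.21 for pigment cells to 0.13 for hypoxia and glycolysis.

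**Figure D4:**
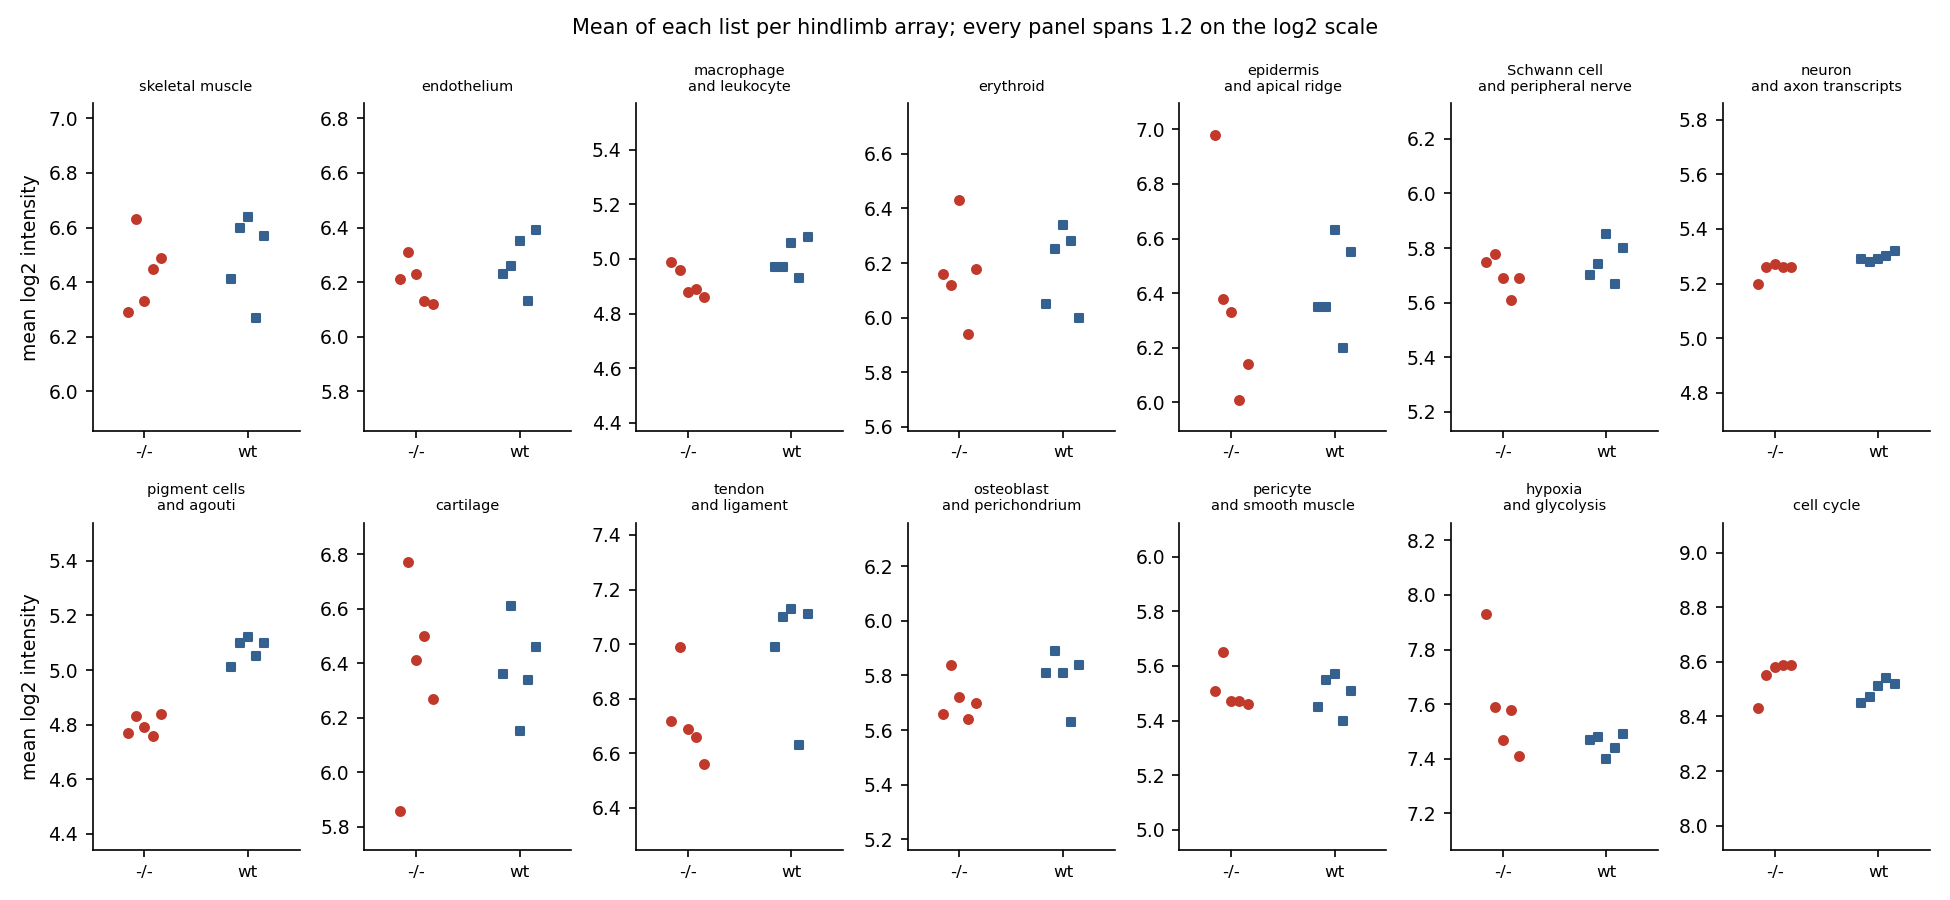
Mean log2 intensity of 14 lists in each hindlimb array, Lmx1b -/- as red circles left of wild type as blue squares, with the same span in every panel. Knockout replicate 6 is the leftmost red point in each panel and the highest in the epidermis (6.98) and hypoxia (7.93) panels. The pigment panel is separated by genotype, as is the neuron panel by a narrow gap (5.27 against 5.28).

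Knockout replicate 6 decided some calls. Without it 42 genes passed again, of which 31 were among the 42 of all arrays. The 11 genes no longer called were Alx1, Aard, Gmnc, Hs3st1, Minar1, Nrp2, Shox2, Tmtc2, Trhde, Snord73a and Tmem100. Each of these lost its call in 7 to 9 of the 10 fits that left out 1 array. Their loss was thus not particular to knockout replicate 6. The 11 called only without it were Mt1, Mt2, Adh1, Macc1, Ifi214, Ifi202b, Nxph1, Tnfrsf19, Grem1, Bmp2 and Hpse2. The metallothionein gene Mt2, whose protein binds zinc and copper, stood at 7.43 in that array, against 6.50 to 6.83 in the other 4 knockouts and 7.27 to 7.59 in wild type. Its change was -0.63 (adjusted p = 0.22) with all arrays and -0.79 (adjusted p = 0.00287) without that array. Mt1 had the same pattern, at 7.50, against 6.66 to 6.75 in the other knockouts and 7.05 to 7.42 in wild type. Adh1, an alcohol dehydrogenase gene that acts on retinol, had a change of -0.63 (adjusted p = 0.184) with all arrays and -0.76 (adjusted p = 0.0114) without it.

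Leaving out each of the 10 arrays in turn gave 23 to 42 calls. The call held in all 10 fits for 22 genes: a, Apod, Calb1, Cbln2, E330013P04Rik, Emx2, Foxf2, Gabrb2, Gpm6a, Kcnab1, Kcnip4, Kera, Lmx1b, Lum, Ms4a4d, Negr1, Oprk1, Ppargc1a, Slc40a1, Sstr1, Tafa1 and Wnt11. Cdh8 lost it without wild-type replicates 7, 8 or 9 or knockout replicate 8 (adjusted p 0.0538 to 0.0831), and Gap43 without wild-type replicates 7 or 10 or knockout replicates 9 or 10 (0.0522 to 0.0729). Cbln4 lost it without wild-type replicates 7 or 8 or knockout replicates 8, 9 or 10 (0.0537 to 0.0613), and Tor3a without wild-type replicates 6, 7 or 10 or knockout replicates 8 or 10 (0.0524 to 0.0809). Shox2 kept it only without wild-type replicate 6 or knockout replicates 7 or 10 (otherwise 0.0641 to 0.103), and Hoxc5 only without wild-type replicate 6 or knockout replicates 6 or 10 (0.0612 to 0.101). Tmeff2 kept it only without wild-type replicate 9 or knockout replicates 6 or 7 (otherwise 0.0612 to 0.101), and Aard only without wild-type replicate 9 or knockout replicates 7 or 8 (0.1 to 0.148). Alx1 kept it only without wild-type replicate 10 or knockout replicate 7 (otherwise 0.0501 to 0.104), and Tmtc2 only without wild-type replicate 9 or knockout replicate 7 (0.0749 to 0.153). Insyn2b kept it only without wild-type replicate 9 or knockout replicate 6 (otherwise 0.0621 to 0.14), Minar1 without wild-type replicate 6 or knockout replicate 7 (0.0818 to 0.153) and Trhde without wild-type replicate 9 or knockout replicate 8 (0.0803 to 0.14). The last 7 genes kept it in a single fit each: Efemp1 and Htr1b without knockout replicate 6 (otherwise 0.061 to 0.146 and 0.0596 to 0.148), Nrp2 and Hs3st1 without knockout replicate 7 (0.0634 to 0.148 and 0.0573 to 0.153), Gmnc without wild-type replicate 8 (0.0746 to 0.129), and Tmem100 and Snord73a without knockout replicate 10 (0.0613 to 0.155 and 0.0524 to 0.138). With the 6 male arrays only, 5 genes passed, namely a, Apod, Calb1, Kera and Sstr1.

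The same genotype effect was then set beside that in forelimbs, to see where hindlimbs differ. Of the 40 genes lowered in hindlimbs, 38 had a change below 0 in forelimbs, where the median change over all genes was 0.00. In the fit of all 20 arrays 31 of the 40 were called lower in forelimbs. Of all genes 1.03% were called lower there and 1.27% in either direction. These 31 genes are 77.5% of the hindlimb list and 15.1% of the 205 genes of the forelimb list in that fit. In a fit of the forelimb arrays alone 26 of the 40 were called lower, where 0.742% of all genes were. The median change over the 40, which were chosen by their hindlimb values, was -0.62 in hindlimbs and -0.59 in forelimbs. Over the 205 genes called lower in forelimbs, the median hindlimb change was -0.21. In the fit of all 20 arrays 45 genes were called lower in hindlimbs, against those 205 in forelimbs. The limbs may come from the same embryos or litters, and sex differed between the forelimb groups, with 2 of 5 knockout and 5 of 5 wild-type forelimbs male. Kera changed by -2.87 in hindlimbs and -3.09 in forelimbs, and Lmx1b by -0.53 and -0.58. Neither raised hindlimb gene was called in forelimbs, where Tmem100 had a change of 0.01 and Snord73a one of 0.06.

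Only 4 genes (0.0201%) passed a test of the difference between the genotype effects in hindlimbs and forelimbs. Alx1 was the 1 of the 42 hindlimb genes among them. It stood at 4.31 to 4.46 in knockout and 4.65 to 5.02 in wild-type hindlimbs, and at 4.68 to 5.12 in knockout and 6.04 to 6.52 in wild-type forelimbs. Its change was -0.44 in hindlimbs and -1.27 in forelimbs, a difference of 0.83 (SE 0.131; adjusted p = 0.0196). Grm7, a glutamate receptor gene, had a change of -0.10 in hindlimbs, at 3.52 to 3.89 in knockouts and 3.74 to 3.89 in wild type. In forelimbs its change was -0.91, a difference of 0.81 (SE 0.117; adjusted p = 0.0138). The Grm7 means in forelimbs were 3.69 in knockouts and 4.59 in wild type, so only the wild-type forelimbs stood higher. Pax1, a paired-box gene of the shoulder girdle, had changes of 0.18 in hindlimbs and -0.49 in forelimbs (difference 0.66, adjusted p = 0.0196). The Pax1 call was lost with sex as a covariate (difference 0.61; limma, adjusted p = 0.0666). Cntn1, an axonal adhesion gene, had changes of -0.07 in hindlimbs and -0.90 in forelimbs (difference 0.82, adjusted p = 0.0435). Its means were 3.99 in knockout and 4.06 in wild-type hindlimbs, and 3.86 in knockout and 4.76 in wild-type forelimbs. Cntn1 and Grm7 thus had low hindlimb levels in both genotypes. Alx1, Grm7 and Cntn1 kept their calls with sex as a covariate (limma, adjusted p 0.0112 to 0.0383). The Cntn1 call was lost with side as a covariate (limma, adjusted p = 0.0634) and with arrays centred on their median (0.0725). Alx1, Grm7 and Pax1 kept theirs in those settings. The Alx1 call was lost without knockout hindlimb replicate 7, without replicates 7, 8 or 10 of the wild-type hindlimbs or without replicate 3 of the wild-type forelimbs (adjusted p 0.0564 to 0.0638).

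Several genes had unlike changes in hindlimbs and forelimbs without passing that test. Galnt13, a gene for an enzyme that adds sugars to proteins, had a change of -0.14 in hindlimbs and -0.80 in forelimbs (difference 0.66, adjusted p = 0.0807). Grem1 had a change of -0.59 in hindlimbs and changed by -1.40 in forelimbs (difference 0.82, adjusted p = 0.0807). Its difference did pass without knockout hindlimb replicate 6 (0.94; limma, adjusted p = 0.00194) and with sex as a covariate (0.92, adjusted p = 0.0383). Thbs4 had -0.30 in hindlimbs and -1.55 in forelimbs (difference 1.24, adjusted p = 0.0807), and Ibsp -0.21 in hindlimbs and -2.40 in forelimbs (difference 2.19, adjusted p = 0.34). In the other direction, Aard changed by -0.56 in hindlimbs and had a change of 0.02 in forelimbs (difference -0.58, adjusted p = 0.787). Tafa1 had changes of -0.39 and 0.03 (difference -0.42, adjusted p = 1).

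**Figure D5:**
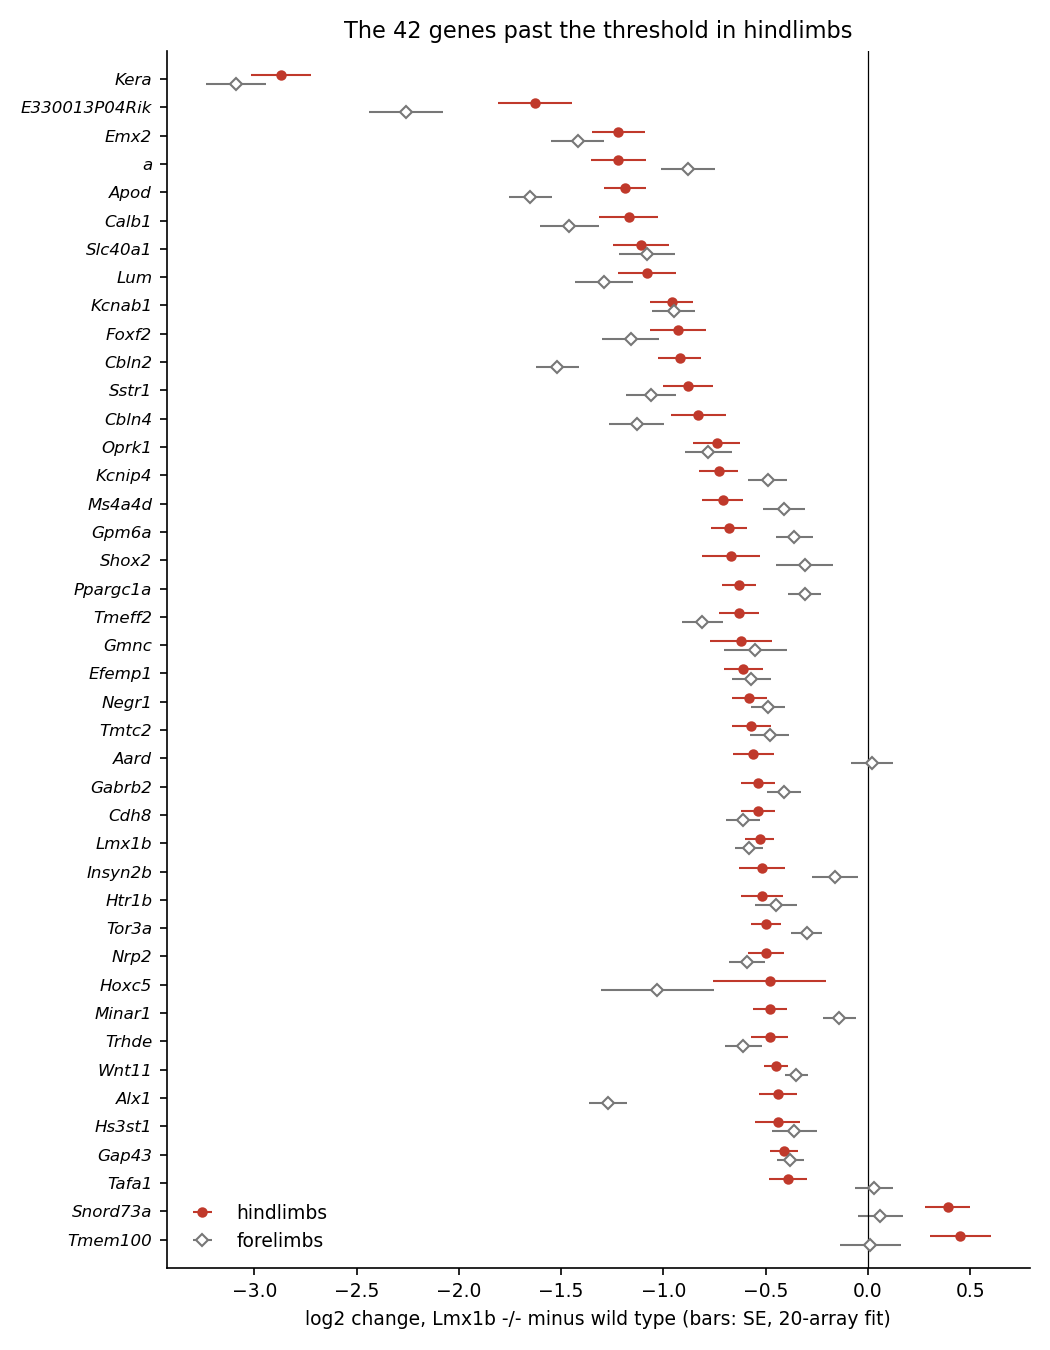
Log2 change (Lmx1b -/- minus wild type, x axis) of the 42 genes called in hindlimbs, in hindlimbs (red circles) and in forelimbs (grey diamonds), with bars for the SE of the fit over all 20 arrays. Most pairs lie on the same side of 0, and Alx1, at -0.44 and -1.27, is the 1 gene here whose difference passed the test.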

How the data were processed

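RNA from single E13.5 limbs (300 ng) was hybridised to GeneChip 1.0 ST arrays of Affymetrix, per the labels' protocols. The deposited values are intensities on a linear scale, 1 per probe set and array, which per the submitters' processing notes come from RMA. Its version, the array annotation and the genome build were not given in the sources used here. Values over the hindlimb arrays ran from 1.73 to 13033, and log2 was taken without a pseudocount. RMA adjusts arrays to a common distribution, so a shift of all genes would not show. Depth has no meaning for arrays, and their number, 5 per group, limits the precision.

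Of 35512 probe sets, 1 was empty on every array, and gene tests used the 21789 with 1 gene symbol, leaving out 1621 with several symbols and 12101 that the gene table does not list. Names were matched to RefSeq (GRCm38.p6), 21698 through Entrez and 3 through an accession, with 88 platform names kept. The probe set with the highest mean stood for each of the 1001 genes with several, which left 19936 genes. RefSeq served only for names, neighbours and promoter windows.

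The 10 hindlimb arrays were fitted in limma 3.58.1 (lmFit and eBayes, R 4.3.3) with genotype as the 1 term, and p-values were adjusted by Benjamini-Hochberg over all genes, with a threshold of 0.05. The difference between limb types came from 4 group means over all 20 arrays. The pipeline was tested on simulated data. Tables and figures used pandas 2.3.3, numpy 2.4.6 and matplotlib 3.10.9 under Python 3.11.15. Replicate numbers 6 to 10 are those of the titles. Alternatives included sex, side and muscle level as covariates, male arrays only, blocks, other scalings and filters, and leaving out each array.

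The 37 gene lists (998 entries, 56 without a probe set) and the arrays compared were chosen with earlier results of these data known. Genes were named by rule: Lmx1b, the largest changes among called genes (25 lowered and 15 raised at most), up to 5 called members per list, the 6 smallest p for the difference between limb types, and a set of patterning, skeletal and sex-linked genes. Provisional names were skipped. E330013P04Rik, Gabrb2, Htr1b, Insyn2b, Tor3a, Trhde, Minar1, Hs3st1 and Tafa1 were named after their values were seen. So were the genes called only without knockout replicate 6. The same held for Glo1, Rps3a1, Snord73b, Col14a1, Steap4, Hoxc4, Hoxc6, Hoxc8 and Rab11fip2. Dct, Mitf, Pmel, Sox10, Krt5 and Trp63, which did not pass, were named as list members or cell type markers, with their values known.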

Additional observations from a re-analysis of the deposited data

Results flagged for a closer look

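Among 120 groups of 5 arrays, 9 had 1 array far from the other 4 by Dixon's test, which chance alone gives in about 1 of 20 groups. Knockout replicate 6 had 4 of them: Tbx4 at 7.28 (next lowest 7.71), Pitx1 at 8.22 (next 8.47), Efemp1 at 6.38 (next 6.88) and Htr1b at 4.82 (next 5.17). In other knockout hindlimbs, Foxf2 stood high at 4.93 in replicate 7 (next 4.72) and Gabrb2 at 4.50 in replicate 8 (next 4.36). In wild-type hindlimbs, Negr1 stood high at 6.16 in replicate 10 (next 5.92), Thbs4 low at 5.45 in replicate 9 (next 5.96) and Cntn1 low at 3.82 in replicate 6 (next 4.08).

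The genotype effect differed between hindlimbs and forelimbs for 4 genes by the test of the difference itself. The differences were 0.83 for Alx1, 0.82 for Cntn1, 0.81 for Grm7 and 0.66 for Pax1, with adjusted p of 0.0196, 0.0435, 0.0138 and 0.0196.

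When all 35511 probe sets were tested together, apart from the gene tests, 24 were called. Of the 13722 probe sets without a single gene symbol, which the gene tests left out, 1 was among these 24. Probe set 10565528 was higher in knockout hindlimbs, with a change of 0.53 (SE 0.062; limma, adjusted p = 0.0166), and it is unnamed here.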

How the results depend on the processing

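The count of 42 genes fell to 5 with male arrays only, 26 with the title number as a replicate block, 27 among genes with a mean level of at least 5 (fewer genes tested), and 22 each at a minimum of 1.5-fold and at an adjusted p under 0.01. Leaving out 1 array gave 23 to 42 calls. The lowest counts came without wild-type replicates 7 (23), 8 (25) or 10 (25) and knockout replicates 8 (26), 9 (25) or 10 (27). Other settings gave 31 to 58 calls, with 31 for sex as a covariate and 58 for array weights. The Lmx1b change was -0.64 (adjusted p = 0.0658) with male arrays only and -0.53 (adjusted p = 0.0541) with the replicate block. Without single arrays it ran from -0.57 to -0.50.

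For hindlimb arrays with the same title number, the correlations of their deviations ran from -0.31 to 0.25. With 5 arrays a group these values cannot show whether the numbers pair samples. The replicate block is given only here. The count of 4 genes that differed between limb types fell to 1 among genes with a mean level of at least 5, and ran from 1 to 10 without single arrays, with 10 without wild-type forelimb replicate 1. The Cntn1 call was lost in most such fits (adjusted p from 0.0564 to 0.131) and the Pax1 call in 8 (0.0527 to 0.0657), while Grm7 kept its call in each of the 20. With the replicate block the Cntn1 call was lost as well (limma, adjusted p = 0.233), and Alx1, Grm7 and Pax1 kept theirs. Over the single genes and lists, 1073 values stayed on their side of the threshold, 255 lost a call and 7 gained one, and no called value changed sign. The cause of these losses was not tested. With 5 arrays a group, the smallest called changes were -0.39 (Tafa1) and 0.39 (Snord73a).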

Other observations

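When all 20 arrays shared 1 estimate of the spread, 46 genes were called in hindlimbs, 35 of them among the 42. The 11 called only there were 9130008F23Rik, Dct, Edn2, Grem1, Hpgd, Hpse, Lrrc17, Nova1, Rab11fip2, Slc17a6 and Slitrk1. Slc17a6, a vesicular glutamate transporter gene, had a change of -0.62 (limma, adjusted p = 0.00212 in that fit and 0.0535 in the hindlimb arrays alone). Nova1, a neuronal splicing factor gene, had a change of -0.58 (adjusted p = 0.0227 and 0.0729). Hpse, the heparanase gene, had a change of -0.46 (adjusted p = 0.0227 and 0.0648), opposite in sign to the 0.59 of its relative Hpse2. Hpgd, a prostaglandin-degrading enzyme gene, had a change of -0.36 (adjusted p = 0.0253 and 0.0939). Edn2, an endothelin gene, was the 1 of the 11 with a positive change, 0.31 (adjusted p = 0.0427 and 0.116). These genes were chosen after their values were seen.

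Hoxc5 lay within 3.94 to 4.27 in knockout and 4.39 to 4.70 in wild-type hindlimbs. In forelimbs it varied widely, at 4.80, 5.88, 6.37, 4.25 and 4.44 in knockouts and 5.90, 5.75, 6.46, 6.44 and 6.33 in wild type. Its hindlimb change had an SE of 0.078 in the hindlimb arrays and 0.276 in the fit over all 20, where it was not called (adjusted p = 0.924).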
